A study of Homo sapiens with 6 samples.

Results

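The genes of the mitochondrial respiratory chain and ATP synthase were examined in LX-2 cells, an established human hepatic stellate cell line, with and without transforming growth factor beta 1 (TGF-β1). Members were taken by gene name from the deposited table: names that begin with NDUFA, NDUFB, NDUFC, NDUFS, NDUFV, UQCR, COX4 to COX8, ATP5, MT-ND, MT-CO, MT-ATP or MT-CYB, and SDHA, SDHB, SDHC and SDHD. Names that end in P and a number were dropped as pseudogenes, apart from MT-ATP6 and MT-ATP8, which have that ending but are genes of mitochondrial DNA. Of 27830 genes in the table, 146 began as the rule says, 35 were dropped and 111 were members. Without MT-ATP6 and MT-ATP8 the rule read to the letter gives 109. The members were 97 subunits, 84 encoded in the nucleus and 13 in mitochondrial DNA, 8 assembly factors (NDUFAF), the ATP synthase inhibitor ATP5IF1 and 5 antisense, divergent or readthrough rows.

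The study had 6 libraries of 1 cell line, 3 from control cells without treatment and 3 from cells given 10 ng/ml TGF-β1 for 24 h. TGF-β1 was given without serum, per the labels. They do not name the medium of the control cells, and effects of serum and of TGF-β1 cannot be told apart. Whether libraries of 1 group stem from separate cultures is not said either. All p-values below therefore rest on the spread among these libraries only, and that spread may be technical. In bulk samples, fewer cells of a type and less RNA per cell cannot be told apart. Total counts ran from 13866957 to 17694675 per library, and libraries of a group differed by more than counting noise (chi-square of 5.15 to 45.4 per degree of freedom). Of 8 TGF-β1 response genes, 5 were called (FN1, TGFBI, TAGLN, LTBP2 and PMEPA1). Stellate cell and fibroblast markers summed to 3383 to 3458 CPM in the controls and 3639 to 4168 CPM with TGF-β1, with VIM (1407 CPM in the controls and 1232 CPM in the treated libraries), COL1A1 (1319 and 1780 CPM) and SPARC (539 and 707 CPM) as its most abundant genes by group mean, while the stellate cell markers LRAT and DES had at most 2 and 5 counts in a library. Among the others of this list, COL3A1 had 94.3 and 157 CPM and PDGFRB 47.2 and 47.5 CPM. ACTA2 was low at 4.96 and 4.78 CPM, with a log2 difference of -0.08 (edgeR adjusted p = 0.898). COL1A2 had 2.2 and 2.91 CPM and GFAP 1.94 and 1.78 CPM. PDGFRA, RGS5, DCN and LUM were lower still, with 0.319 to 0.695 CPM in the controls and 0.147 to 0.572 CPM with TGF-β1. Leukocyte markers summed to 0.551 to 1.47 CPM over all libraries and endothelial markers to 4.28 to 6.27 CPM. Hepatocyte markers summed to 23.1 to 30.5 CPM and cholangiocyte and epithelial markers to 72.9 to 87.2 CPM. Of 8 hepatocyte markers, 4 were in the table. Their sum was nearly all SERPINA1 (26.6 CPM in the controls and 27.8 CPM with TGF-β1), with APOA1, APOB and CYP3A4 at no more than 1 count. The epithelial sum was nearly all SOX9 (77.2 and 74.9 CPM). KRT7 had 1.39 and 1.81 CPM, and EPCAM and KRT19 had at most 1 and 2 counts in a library.

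Respiratory complexes I to IV pass electrons from NADH and succinate to oxygen. Complexes I, III and IV, but not II, pump protons across the inner mitochondrial membrane. Complex V, the ATP synthase, uses the proton gradient to make ATP. Complexes I, III, IV and V join subunits made from nuclear genes, translated in the cytosol and imported, with a few core subunits made from mitochondrial DNA inside the organelle, and complex II is encoded in the nucleus alone. In the nucleus many of these genes are controlled by nuclear respiratory factor 1 (NRF1) and the ETS family factor GABP, and activated stellate cells are known to change their energy metabolism.

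Sequences of 2 kinds bear on the values below. The first are stretches where genes of mitochondrial DNA overlap, since a read there lies in 2 genes and its assignment to either row is uncertain. They are read from the GENCODE 29 transcripts of GRCh38, on the + strand, with the shared bases in capitals and 30 bases on each side in lower case. MT-ATP8 and MT-ATP6 share the 46 bases at chrM:8527-8572, 22.2% of MT-ATP8, and MT-ND4L and MT-ND4 share the 7 bases at chrM:10760-10766, 2.36% of MT-ND4L.
MT-ATP8 into MT-ATP6: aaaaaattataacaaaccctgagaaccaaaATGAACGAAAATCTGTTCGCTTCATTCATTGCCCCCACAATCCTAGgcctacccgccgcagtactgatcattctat
MT-ND4L into MT-ND4: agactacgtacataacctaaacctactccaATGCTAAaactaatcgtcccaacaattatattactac
The counts of the overlapping pairs were unlike. MT-ATP8 was at 0 to 2 counts in every library, beside 12691 to 20289 counts per library for MT-ATP6. MT-ND4L had 1795 to 2658 counts per library. The rows of an overlapping pair need not be levels of 2 separate transcripts. Whether the overlap sets the count of MT-ATP8 was not tested.

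The second are promoters of nuclear subunits. RefSeq windows of GRCh38.p14, from 250 bases before to 50 bases after the transcript start, were matched by symbol for 67 of the 84 nuclear subunits. They were searched on both strands for the perfect palindrome of the NRF1 motif, which stands in capitals in the NDUFB4 window below, and for an ETS motif, CCGGAAGT. The NRF1 letters were in 4 windows (5.97%), against 414 of 27305 genes (1.52%), and the ETS letters in 12 (17.9%), against 1351 genes (4.95%). A match is a description of the letters and not of binding. The 250 bases before the RefSeq start are shown for COX8A, the subunit with the lowest p below, for ATP5PD, another gene whose TGF-β1 libraries were all below the controls, and for NDUFB4, which holds the NRF1 letters. Motif letters are in capitals, and the strand of the gene is given.
COX8A, chr11:63974370-63974619, + strand, ETS letters: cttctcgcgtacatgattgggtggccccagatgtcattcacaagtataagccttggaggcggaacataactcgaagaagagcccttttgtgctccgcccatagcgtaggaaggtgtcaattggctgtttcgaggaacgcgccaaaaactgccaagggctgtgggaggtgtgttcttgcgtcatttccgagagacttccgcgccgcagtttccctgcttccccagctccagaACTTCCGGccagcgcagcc
ATP5PD, chr17:75046970-75047219, - strand, ETS letters: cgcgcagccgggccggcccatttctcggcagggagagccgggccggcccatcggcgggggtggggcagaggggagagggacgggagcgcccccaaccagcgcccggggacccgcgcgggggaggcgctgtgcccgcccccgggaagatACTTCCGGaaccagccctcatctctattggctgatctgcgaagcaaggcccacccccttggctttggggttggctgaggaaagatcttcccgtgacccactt
NDUFB4, chr3:120596086-120596335, + strand, NRF1 letters: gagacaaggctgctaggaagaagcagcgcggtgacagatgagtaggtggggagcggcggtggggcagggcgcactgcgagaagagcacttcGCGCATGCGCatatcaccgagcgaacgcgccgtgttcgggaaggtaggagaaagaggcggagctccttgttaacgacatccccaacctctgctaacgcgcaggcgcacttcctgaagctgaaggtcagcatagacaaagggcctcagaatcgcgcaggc

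Levels were compared between genes as FPKM, the authors' length-scaled unit, as the mean of 6 libraries. Transcripts of mitochondrial DNA were far above those of the nuclear subunits, with a median of 1495 FPKM over 13 genes against 19.99 FPKM over 84. MT-CO1, the catalytic subunit of complex IV, was the highest with 3747 FPKM, followed by MT-CO2 with 2984 and MT-CO3 with 2303 FPKM. Among the complex I genes of mitochondrial DNA, MT-ND3 had 1932 and MT-ND4 1751 FPKM, and the others ran from MT-ND6 with 368 to MT-ND2 with 700.2 FPKM. MT-ATP6, the proton channel subunit of the ATP synthase, had 1522 FPKM and MT-CYB, cytochrome b of complex III, 1495 FPKM. MT-ATP8 stood apart with 0.205 FPKM. A near-identical nuclear copy, MTATP6P1, had 4821 to 7540 counts per library, so the split of reads between MT-ATP6 and its copy is uncertain.

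Among the nuclear subunits, ATP5F1B, the catalytic β subunit of the ATP synthase, had the highest level with 370 FPKM. NDUFS5 with 196 and NDUFB11 with 151 FPKM were the highest of complex I, UQCRC1, a core protein of complex III, had 150 FPKM, and SDHC, a membrane anchor, with 52.3 FPKM was the highest of complex II. In complex IV the highest nuclear gene was COX6B1 with 95.6 FPKM. Below a limit of 5 FPKM, chosen after the values were seen, were 22 nuclear subunits, and 15 were below 1 FPKM. The latter include core subunits of complex I such as NDUFS7 with 0.144 and NDUFV2 with 0.182 FPKM, and SDHA, the catalytic subunit of complex II, with 0.788 FPKM.

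Low levels went with shared annotation in part of these genes. Without stated strand, reads from exons that 2 genes share cannot be assigned, and exon bases shared with another gene were counted in GENCODE 29. The 38 nuclear subunits that share none had a median of 28.7 FPKM, with 7 of them below 5 FPKM. The 35 sharing up to 25% had a median of 17.96 FPKM, with 8 below 5 FPKM. The 10 sharing more than 25% and up to 50% had a median of 1.49 FPKM, with 6 below 5 FPKM and a highest level of 151 FPKM. Most of the low genes thus share little or nothing. Across the 84 genes, Spearman's rho of the shared percentage and FPKM was -0.29, as a description over genes of the same 6 libraries. NDUFS7 shared 49.1% of its exon bases, NDUFV2 28.4%, NDUFB8 48.5% and ATP5ME, the only gene above 50%, 61.6%. Other low genes share little: SDHA shares none, and had 70 to 148 counts per library beside 190 to 303 for its pseudogene copy SDHAP1 and 109 to 259 for SDHAP3, which are not members. The gene length behind FPKM also differs, with a median of 870 bases over the 12 tested genes of mitochondrial DNA and of 2661.5 bases over the 78 tested nuclear subunits. For NDUFA5, which had 2.79 FPKM, it was 13739 bases. The part of shared exons, copies and length in these levels was not tested.

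**Figure D1:**
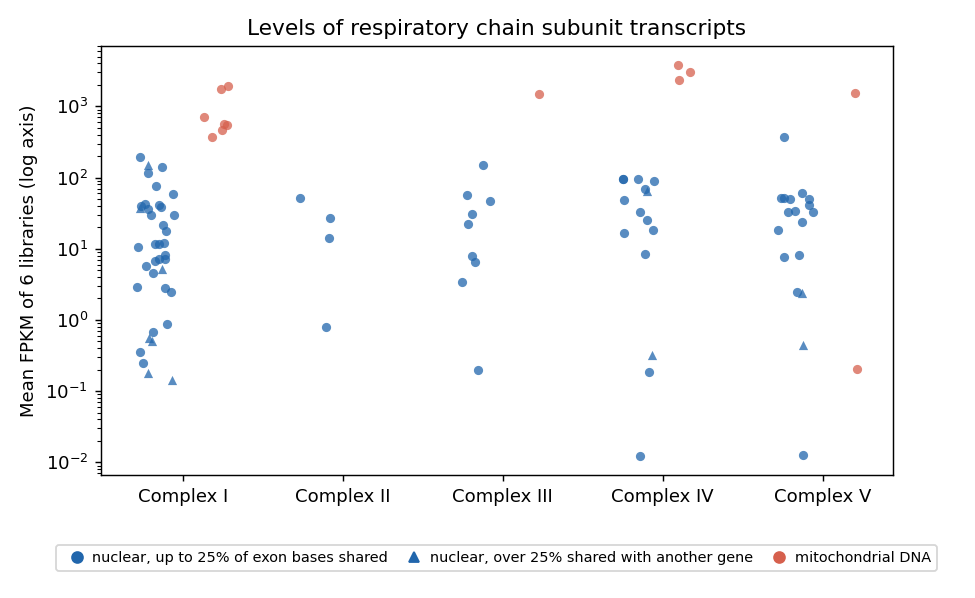
Mean FPKM over 6 libraries (log axis) of each of the 97 subunits by complex, nuclear genes in blue and genes of mitochondrial DNA in red, with triangles for nuclear genes that share over 25% of their exon bases. Genes of mitochondrial DNA lie above every nuclear gene of their complex except for MT-ATP8 at 0.205 FPKM, and 15 nuclear genes lie below 1 FPKM.

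Of the 111 members, 101 passed the filter on low counts and were tested. The other 10 were COX7A1 with 0 to 3 counts per library, COX7B2 with 0 to 1, ATP5ME with 4 to 10, NDUFV2 with 2 to 14, UQCRHL with 2 to 11, MT-ATP8 with 0 to 2, NDUFB2-AS1 with 0 to 6, and ATP5MGL, ATP5MF-PTCD1 and UQCRFS1-DT with 0 to 1. The low counts of COX7A1 and COX7B2, the muscle and testis forms of complex IV subunits, and of the retrogene UQCRHL leave no comparison of treated with control cells for them. COX4I2, COX6A2 and COX8C had no row of that name in the deposited table, so they were not analysed.

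The main question was whether transcripts of the respiratory chain differ after TGF-β1. No member was called by edgeR's quasi-likelihood test at an adjusted p under 0.05, where 0.366% of 14463 tested genes were called, 27 higher and 26 lower. The smallest adjusted p of a member was 0.11 (COX8A). At an unadjusted p under 0.05, 7 members were lower and 0 higher, against 4.49% of all genes lower and 11.1% higher, with COX8A, COX6C, COX6B2, NDUFB8, MT-ND3, UQCRQ and ATP5MC2 as the 7. Among members, COX8A alone was called, as lower, by DESeq2 (4.25% of all genes called, 493 higher and 122 lower). The same held with the replicate number as a block (3.64%, 429 higher and 98 lower) and without the filter (4.46%, 1071 higher and 169 lower). Most members had a lower mean level with TGF-β1: the log2 difference was below 0 in 80 of 101, against 49% of all tested genes, with a median of -0.14 against 0.01. All TGF-β1 libraries were below all controls in 21 members, against 9.12% of tested genes, and above them in 0, against 7.93%. These differences were small: the middle 50% of the members lay between -0.23 and -0.03, beside a median standard error (SE) of 0.15 for a single member.

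Of 78 tested nuclear subunits, 68 had a negative difference, with a median of -0.16. In 18 the groups did not overlap, all lower with TGF-β1, where 9.12% of all tested genes were lower in that way. Of 12 tested genes of mitochondrial DNA, 8 had a negative difference, with a median of -0.04. In 3 the groups did not overlap, all lower, beside the same 9.12%. The difference between the genomes was not tested. Counts of nuclear subunits took 0.747%, 0.775% and 0.699% of each control library and 0.604%, 0.717% and 0.718% of each TGF-β1 library. The ratio of mitochondrial to nuclear subunit counts was 2.47 ± 0.257 in the controls and 2.65 ± 0.233 with TGF-β1 (SD, n = 3 per group), so the ranges overlap.

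**Figure D2:**
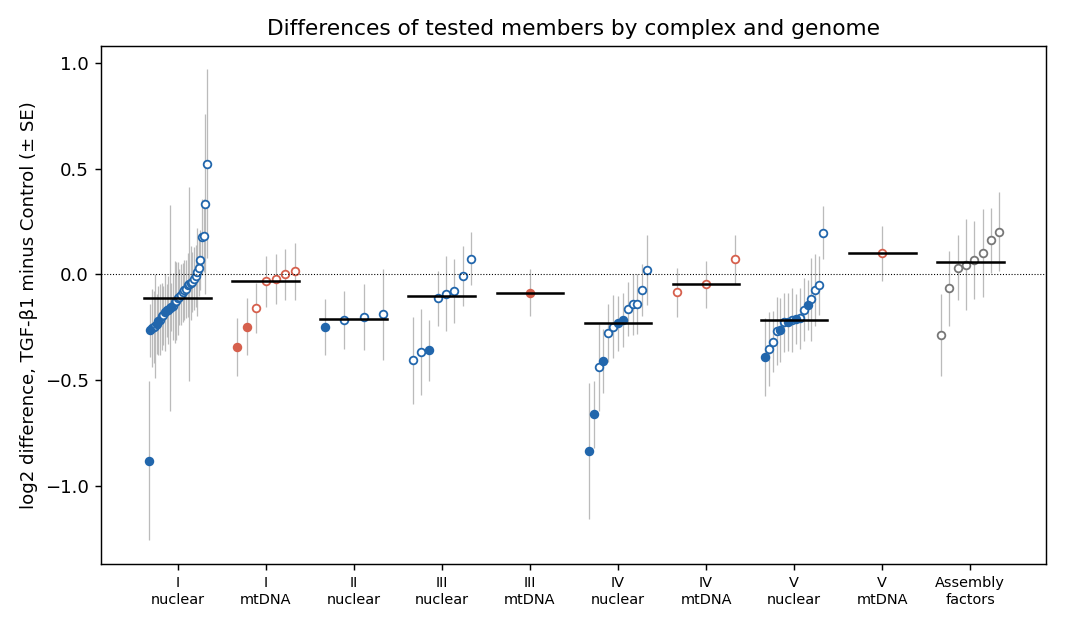
The log2 difference (TGF-β1 minus control, with SE) of each tested subunit and NDUFAF assembly factor by complex and genome. Filled points are genes whose TGF-β1 libraries were all below the controls and bars are medians, which are lowest for nuclear genes of complexes IV (-0.23) and V (-0.21) and above 0 for NDUFAF assembly factors (0.06).

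Complex IV, cytochrome c oxidase, held the member with the lowest p. COX8A, a small membrane subunit of the complex, had 40.2, 42.3 and 33.5 CPM in the controls and 22.6, 26.5 and 24.2 CPM with TGF-β1. The groups did not overlap, and the gene was 1.58-fold lower, a log2 difference of -0.66 ± 0.16 (SE), at an edgeR adjusted p of 0.11. The 95% interval of the difference ran from -1.01 to -0.31. It lies at chr11:63974607-63976543 on the + strand, and 34.5% of its exon bases are shared with AP000721.1 on the same strand, so part of its reads may be ambiguous. COX6C, another small subunit of nuclear DNA (chosen after its values were seen), had 51.8, 54.9 and 46.7 CPM in the controls and 39.8, 42.5 and 33.03 CPM with TGF-β1. These groups did not overlap either, with a log2 difference of -0.41 ± 0.15 (SE; edgeR adjusted p = 0.227). COX6C shares no exon base with another gene.

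Of the 16 tested complex IV subunits, 14 had a negative difference, with a median of -0.19. Beside 9.12% of all tested genes, 5 did not overlap, all lower: COX8A, COX6C, COX7C, COX7A2L and COX6B2. COX6B2, the testis form of subunit 6B, had the lowest difference of the complex, -0.83 ± 0.32 (SE; edgeR adjusted p = 0.245), from a level of 0.736 to 1.70 CPM that few reads support. COX5B had the highest nuclear difference at 0.02 and MT-CO3 the highest of the complex at 0.07. COX4I1, the large regulatory subunit, had 245 ± 29.5 CPM in the controls and 222 ± 29.95 CPM with TGF-β1 (SD, n = 3 per group), a log2 difference of -0.14 with an edgeR adjusted p of 0.668. COX6A1 differed by -0.44 (edgeR adjusted p = 0.324) and NDUFA4, once counted to complex I, by -0.28 (edgeR adjusted p = 0.356), each with groups that overlap. For the catalytic subunits of mitochondrial DNA, MT-CO1 had -0.05 and MT-CO2 -0.09.

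In complex V, 15 of 17 tested subunits had a negative difference, with a median of -0.21. Beside 9.12% of all tested genes, 5 did not overlap, all lower. These were ATP5F1A and ATP5F1C, the α and γ subunits of the catalytic part, ATP5PD and ATP5PF of the peripheral stalk, and ATP5PO, which links stalk and catalytic part. ATP5F1B had 910, 946 and 829 CPM in the controls and 657, 737 and 902 CPM with TGF-β1. TGF-β1 replicate 3 was among the controls and the other TGF-β1 libraries below them (log2 difference -0.23 ± 0.14 SE, edgeR adjusted p = 0.459). ATP5PO was the lowest, with 8.91, 8.45 and 8.84 CPM against 6.01, 7.47 and 6.47 CPM (log2 difference -0.39 ± 0.19 SE, edgeR adjusted p = 0.333). ATP5PB, the b subunit of the stalk, was the highest at 0.20 (edgeR adjusted p = 0.482), and its groups overlap. ATP5IF1, the inhibitor that binds the ATP synthase when the gradient fails, had 38.96 ± 3.46 CPM in the controls and 43.1 ± 10.5 CPM with TGF-β1 (SD, n = 3 per group), at an edgeR adjusted p of 0.736.

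**Figure D3:**
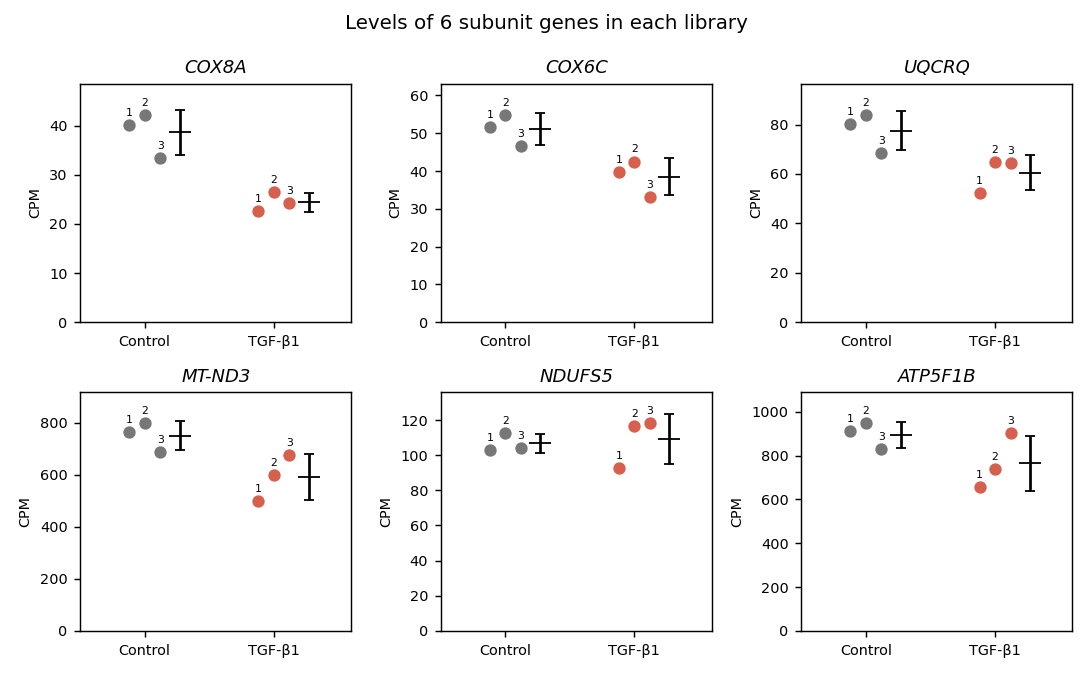
CPM of 6 subunit genes in each library on axes from 0, with points numbered by replicate and bars for mean ± SD (n = 3 per group). COX8A, COX6C, UQCRQ and MT-ND3 have no TGF-β1 point at or above the lowest control, while NDUFS5 and ATP5F1B overlap.

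Complex I, the NADH dehydrogenase, had 44 tested subunits, 8 of them with groups apart, all lower, beside 9.12% of all tested genes. Of the 44 subunits, 35 had a negative difference, with a median of -0.11. NDUFB8 was the lowest of them at -0.88 ± 0.38 (SE; edgeR adjusted p = 0.283), but it was counted at 0.486 to 1.63 CPM only. Of the others NDUFS5, an accessory subunit, had 103, 113 and 104 CPM in the controls and 92.6, 117 and 118 CPM with TGF-β1, which overlap (log2 difference 0.03). NDUFA13 was the highest at 0.52 ± 0.45 (SE; edgeR adjusted p = 0.609), at 0.354 to 1.34 CPM. NDUFA4L2, a relative of NDUFA4 that is grouped here with complex I by its name, followed at 0.33 (edgeR adjusted p = 0.742) and is low too. The 8 NDUFAF assembly factors, which help to build complex I and are not part of it, had a median of 0.06. Of the 8, 6 were positive, with no groups apart. Complex I assembly factors with other names, which are not members, mostly had the other sign. TIMMDC1 was positive at 0.05, while TMEM126B, TMEM186, ACAD9, ECSIT, FOXRED1, NUBPL, DMAC1 and DMAC2 were negative, down to -0.13 for DMAC1.

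Of the complex I genes of mitochondrial DNA, MT-ND3 had 765, 797 and 688 CPM in the controls and 499, 598 and 677 CPM with TGF-β1. The groups were apart by the narrow gap between control replicate 3 and TGF-β1 replicate 3 (log2 difference -0.34 ± 0.14 SE, edgeR adjusted p = 0.257). The difference was -0.66 with the GC trend removed (edgeR adjusted p = 0.133), and ran from -0.98 to -0.24 with 1 library left out, with or without that trend. MT-ND4L had 143, 141 and 162 CPM against 135, 106 and 134 CPM (log2 difference -0.25 ± 0.14 SE, edgeR adjusted p = 0.408). MT-ND1 had -0.16, MT-ND5 -0.03, MT-ND2 -0.02, MT-ND4 0.00042 and MT-ND6 0.01, all with groups that overlap. MT-ND4 is cotranscribed with MT-ND4L and overlaps it, yet its row had a difference near 0. These 2 rows need not be levels of separate transcripts, and the difference between them was not tested.

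All 4 subunits of complex II, succinate dehydrogenase, had a negative difference, with a median of -0.21. SDHB, the iron-sulfur subunit, had 71.2, 68.4 and 67.2 CPM in the controls and 51.4, 60.9 and 61.7 CPM with TGF-β1. The groups did not overlap (log2 difference -0.25 ± 0.13 SE, edgeR adjusted p = 0.386). SDHC had -0.21, SDHD -0.20 and SDHA -0.19, with groups that overlap. In complex III, cytochrome bc1, 8 of 9 tested subunits were negative, with a median of -0.09. In 2 the groups did not overlap, both lower, beside 9.12% of all tested genes. UQCRQ had 80.0, 84.0 and 68.6 CPM in the controls and 52.4, 64.8 and 64.3 CPM with TGF-β1, with groups apart (log2 difference -0.36 ± 0.14 SE, edgeR adjusted p = 0.257), and was named after its values were seen. UQCR11 was the lowest at -0.41 (edgeR adjusted p = 0.359) and UQCRC2, a core protein, the highest at 0.07 (edgeR adjusted p = 0.808), both with overlapping groups. MT-CYB had 1718, 1735 and 1827 CPM against 1600, 1669 and 1703 CPM, which do not overlap, at a log2 difference of -0.09 ± 0.11 (SE; edgeR adjusted p = 0.74).

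The shift was not even across libraries. The median log2 deviation of the 78 tested nuclear subunits from their gene means was 0.09, 0.18 and -0.02 in the controls, in the order of their replicate numbers, against -0.23, -0.02 and 0.02 in the treated libraries. TGF-β1 replicates 2 and 3 were thus at the level of control replicate 3, and TGF-β1 replicate 1 was below every other library. Of the 78 genes, 54 were lowest in TGF-β1 replicate 1 and 45 highest in control replicate 2. Without TGF-β1 replicate 1 the median over all tested members was -0.09, and that of complexes I, III and V was -0.05, -0.06 and -0.13. For the 12 mitochondrial genes the same values were -0.05, 0.03 and 0.09 in the controls and -0.05, 0.02 and -0.04 in the treated libraries.

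GC content moved with the same libraries. Over 64 genes with transcript GC content up to 35% the median deviation was -0.10, -0.28 and -0.20 in the controls and 0.67, 0.30 and -0.13 in the treated libraries, so TGF-β1 replicate 1 was at the far end here too. With a smooth trend of each library on GC content removed, the median difference of the nuclear subunits went from -0.16 to -0.21 and that of the mitochondrial genes from -0.04 to -0.18. All 12 mitochondrial genes were then negative, against 8, while 63 of the 78 nuclear subunits were, against 68, and 33 of the 44 complex I subunits, against 35. Complex IV went from -0.19 to -0.37 and complex III from -0.09 to -0.24. In that fit COX8A (log2 difference -0.55, edgeR adjusted p = 0.0268) and COX6C (-0.70, edgeR adjusted p = 0.0288) were called lower, where 2.81% of all tested genes were called and 1.44% called lower. Among other named members whose value moved by more than 1.5 times, NDUFA4 was at -0.63 against -0.28, MT-ND4L at -0.47 against -0.25, COX4I1 at -0.05 against -0.14 and ATP5PB at 0.02 against 0.20. The NDUFAF assembly factors had a median of -0.14 there, against 0.06. The part of GC content in the differences was not tested.

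With the GC trend removed and 1 library left out, an alternative chosen after seeing the data, the number of called members was 0 without control replicate 1 (0.633% of all tested genes called), control replicate 2 (0.946%) or TGF-β1 replicate 2 (0.454%). It was 2, COX8A and COX6C, both lower, of 102 without control replicate 3 (2.05% of all tested genes called, 174 higher and 130 lower). The same 2 were called lower, of 101, without TGF-β1 replicate 1 (2.32%, 158 higher and 184 lower). These shares of members were near those of all genes called in either direction. Without TGF-β1 replicate 3 it was 16, all lower, where 10.3% of 14874 tested genes were called, 739 higher and 787 lower. These 16 included COX8A, COX6C, COX7C, NDUFA4, MT-ND3, MT-ND4L, ATP5F1C and SDHB. With the trend left in, COX8A was the member called without TGF-β1 replicate 1 (edgeR adjusted p = 0.0438), where 2.2% of all tested genes were called, 216 higher and 108 lower. Without TGF-β1 replicate 3, COX8A and MT-ND3 were called lower (edgeR adjusted p = 0.0315 and 0.0422), 2 of 102 members. There 11.2% of all tested genes were called, 1374 higher and 297 lower.

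**Figure D4:**
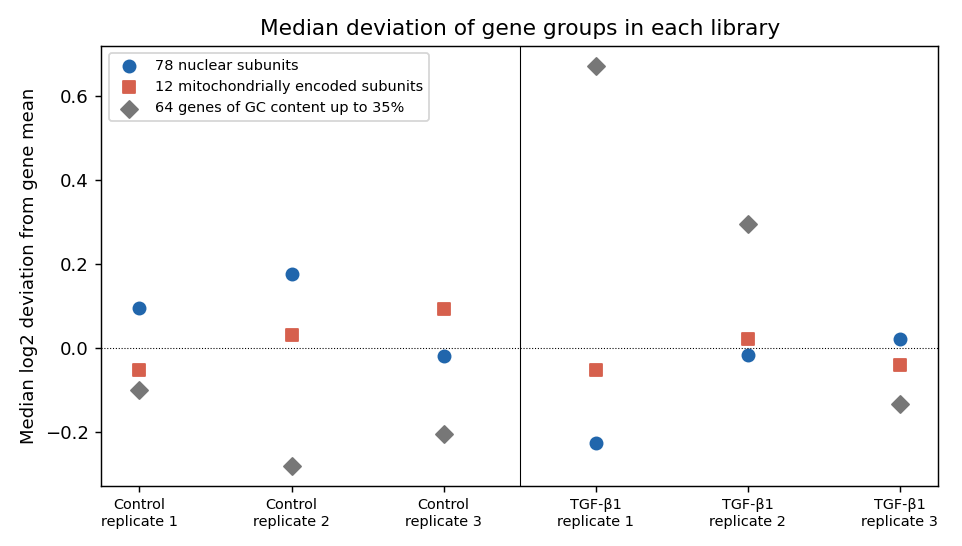
Median log2 deviation from the gene mean in each library for nuclear subunits, mitochondrially encoded subunits and genes of low GC content. TGF-β1 replicate 1 is lowest for nuclear subunits (-0.23) and highest for low-GC genes (0.67).

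**Figure D5:**
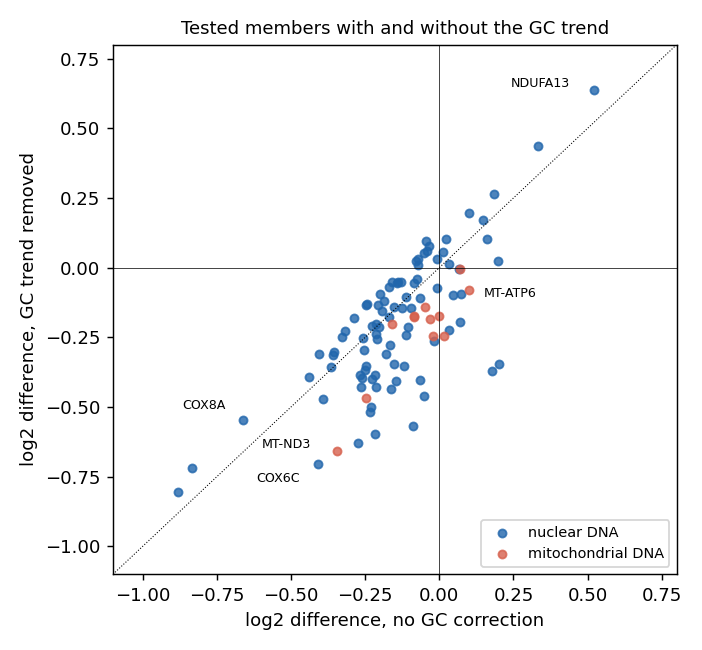
The log2 difference of the 101 tested members without (x) and with (y) removal of the GC trend, with a dotted line of equal values. Most genes of mitochondrial DNA move down, COX6C from -0.41 to -0.70 and MT-ATP6 from 0.10 to -0.08, and COX8A moves up from -0.66 to -0.55.

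Alternative forms of a subunit allow a comparison within a complex position. As shares of summed FPKM, COX6B1 made up 99.6% ± 0.0755 in the controls and 99.7% ± 0.0652 with TGF-β1 of the COX6B pair (SD, n = 3 per group). COX7A2 made up 83.6% ± 0.681 and 83.0% ± 1.24 of COX7A1, COX7A2 and COX7A2L, the last of which is a supercomplex factor rather than a fixed subunit form. NDUFA4 made up 99.2% ± 0.335 and 98.8% ± 0.271 of itself and NDUFA4L2, and UQCRH 99.7% and 99.6% of itself and UQCRHL. The 3 genes for the identical c subunit of the ATP synthase ring were all expressed. ATP5MC2 took 41.1%, 38.6% and 38.6% in the controls and 37.4%, 36.6% and 37.8% in the treated libraries, which do not overlap. ATP5MC1 took 31.2% ± 0.508 and 31.8% ± 1.57, and ATP5MC3 29.4% ± 1.31 and 30.9% ± 0.93 (SD, n = 3 per group).

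Promoter letters and the differences were set side by side for the 64 tested nuclear subunits with a window. The 15 with either motif had a median of -0.20, or -0.31 with the GC trend removed. The 49 with neither had a median of -0.15, or -0.14 with the GC trend removed. All TGF-β1 libraries were below all controls in 7 of the 15 and 9 of the 49, beside the 9.12% of all tested genes. The difference between these groups of genes was not tested.

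Other genes of the pathway were examined in 5 lists, in none of which a gene was called. With the GC trend removed, where 1.44% of all tested genes were called lower, 4 genes of the lists were called lower and 0 higher. These were SUCLG2, a subunit of succinyl-CoA ligase (-0.61, edgeR adjusted p = 0.0024), PDK1 (-0.66, edgeR adjusted p = 0.0124), the mitochondrial peroxiredoxin PRDX3 (-0.43, edgeR adjusted p = 0.0315) and HIGD1A, an inner membrane protein (-0.74, edgeR adjusted p = 0.0386). Of them SUCLG2, PRDX3 and HIGD1A are named after their values were seen. Of 42 tested other respiratory chain genes, 31 were negative, with a median of -0.07. The list held cytochrome c, assembly factors of complexes I to V apart from the NDUFAF genes, and the like. UQCC3, an assembly factor of complex III, was the lowest at -0.55 (edgeR adjusted p = 0.354). COX16, of complex IV, was the highest at 1.04 (edgeR adjusted p = 0.209), or 0.63 with the GC trend removed. It was counted at 0.610 to 2.06 CPM only. Of 21 genes that control mitochondrial gene expression, 12 were positive, with a median of 0.04. GABPA, the DNA-binding subunit of GABP, had 9.69, 6.88 and 9.69 CPM in the controls and 22.3, 14.7 and 10.7 CPM with TGF-β1. The groups did not overlap, with the highest level in TGF-β1 replicate 1, and the log2 difference was 0.87 (edgeR adjusted p = 0.171), or 0.29 with the GC trend removed (edgeR adjusted p = 0.228). TFB1M, an rRNA methyltransferase of mitochondria, was the lowest at -0.21 (edgeR adjusted p = 0.554), or -0.43 with the GC trend removed.

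The 19 tested genes of the tricarboxylic acid cycle had a median of -0.11, with 13 negative. DLD, a shared subunit of the dehydrogenase complexes, was the highest at 0.56 (edgeR adjusted p = 0.259), and PDK1, a kinase that inhibits pyruvate dehydrogenase, the lowest at -0.40 (edgeR adjusted p = 0.335). With the GC trend removed DLD was at 0.18 (edgeR adjusted p = 0.314). The 16 carriers and oxidant defence genes had a median of -0.16, with 13 negative. UCP2, an uncoupling protein family member, had 42.4, 38.6 and 37.97 CPM against 23.9, 25.7 and 33.03 CPM, which do not overlap (log2 difference -0.53, edgeR adjusted p = 0.176), and SLC25A4, an ADP/ATP carrier, was the highest at 0.21 (edgeR adjusted p = 0.589). Of 76 genes of the mitochondrial ribosome, 47 were negative, with a median of -0.05, from MRPL23 at -0.40 (edgeR adjusted p = 0.602) to MRPL46 at 0.67 (edgeR adjusted p = 0.271).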

How the data were processed

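Counts and FPKM of 6 LX-2 libraries were used. Total RNA came from Trizol extraction and went into NEBNext Ultra libraries, per the labels' protocols. Strand and RNA selection are not given in the sources used here. HISAT2, HTSeq 0.13.5 and GRCh38 are named in the submitters' processing notes, without roles. The deposited counts are whole reads per gene without normalization, and the deposited FPKM followed from them with 1 length per gene, per the file headers and values.

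The test was that of edgeR 4.0.16, run in R 4.3.3 (TMM, filterByExpr, robust quasi-likelihood F test, Benjamini-Hochberg over 14463 genes, calls under 0.05), checked on simulated counts. CPM are on TMM-scaled library sizes, and on total counts for summed markers. A floor of 3 counts is 0.17 to 0.216 CPM, covering counting error only. Alternatives were other scaling, filters, the replicate number as a block, each library left out, DESeq2 1.42.0, limma 3.58.1 (voom, and log2 of FPKM plus 1 or 0.1), and removal of a loess trend (span 0.5) on GC content, also with length or the block. GC removal with a library left out was added after seeing the data.

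GENCODE 29 matched 26980 of 27830 genes and all 111 members. The members and lists were chosen with earlier results of these data known. Named were all mitochondrial genes, the highest and lowest difference and highest level of each complex, isoform groups, untested members and the extremes of each list; others are named after their values were seen.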

Additional observations from a re-analysis of the deposited data

How the results depend on the processing

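Members with a negative difference numbered 74 to 91 of those tested under every alternative run, against 80, and no member was called higher in any. Against 53 called genes and 0 called members, upper quartile factors gave 111 genes and 0 members, no filter 1240 genes and 1 member, DESeq2 615 and 1, the GC trend removed 406 and 2, and GC with length 609 and 3. COX8A was among the called members wherever any was called here, joined with GC removed by COX6C and, with length, NDUFB6. With 1 library left out, with or without the GC trend, 4 to 1671 genes were called, the fewest when TGF-β1 replicate 2 was left out and the most when TGF-β1 replicate 3 was, and 0 to 16 members. The replicate block gave 527 genes and 1 member, COX8A, and with GC removed 260 genes and 3 members (COX6C, COX8A and UQCRB). Deviations of same-numbered libraries correlated at 0.18, 0.1 and -0.35, and 2 of 6 libraries correlated best with their own number, so the numbers are not taken to pair the samples.

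Medians with the GC trend removed, with GC and length, and with GC and the replicate block were -0.18, -0.13 and -0.18 for mitochondrial genes. With GC removed, without and with the block, complex III had -0.24 and -0.26 and complex IV -0.37 and -0.38. With 1 library left out, GC trend removed or not, medians ran from -0.26 to -0.090 for all members, -0.26 to 0.000587 for mitochondrial genes, -0.23 to -0.055 for complex I, -0.27 to -0.18 for complex II, -0.33 to -0.065 for complex III, -0.51 to -0.14 for complex IV and -0.41 to -0.13 for complex V.

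Some named genes, most of them near 0, had the other sign. MT-ND4 was at -0.0065 with DESeq2 and with its size factors, -0.0103 with no filter, -0.032 with upper quartile factors, -0.17 with GC removed, -0.12 with length too and -0.17 with the replicate block too. MT-ND6 was at -0.018 with upper quartile factors and -0.245, -0.195 and -0.241 in the last 3 settings. MT-ATP6 had -0.079, -0.032 and -0.082 there and UQCRC2 -0.096, -0.070 and -0.101. MT-CO3 had -0.0048 with GC removed and -0.0175 with the replicate block too. UQCRH had 0.0147 with total counts, and 0.0117 and 0.0118 with FPKM pseudocounts of 1 and 0.1. Without 1 library, GC trend removed or not, the ranges were -0.035 to 0.26 for ATP5PB, -0.22 to 0.0205 for COX4I1, -0.27 to 0.0274 for COX6B1, -0.65 to 0.11 for MRPL23, -0.18 to 0.16 for MT-ATP6, -0.10 to 0.14 for MT-CO3, -0.34 to 0.0312 for MT-ND2, -0.24 to 0.070 for MT-ND4, -0.28 to 0.0226 for MT-ND5, -0.35 to 0.11 for MT-ND6, -0.30 to 0.042 for SDHA, -0.19 to 0.13 for UQCRC2 and -0.18 to 0.0876 for UQCRH. The cause was not tested. Settings that join GC removal with a left-out library were chosen after seeing the data. The median SE of a tested member was 0.15 with 3 libraries per group.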
